A study of Drosophila melanogaster with 2 samples.

Results

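Downstream promoter peaks are Ada2b-eGFP peaks whose summit, the base where the peak is highest, lies at or past a transcription start site (TSS) on the strand of the gene. They were chosen from the conservative peak list of the series. A member had its summit within 500 bp of a TSS of a protein-coding gene and at or downstream of the nearest one, and peaks with starts of protein-coding genes on opposite strands within 500 bp of the summit were left out. The rule gave 231 members of the 4796 peaks on the 7 main chromosome arms. The other promoter peaks were 1079 with summits upstream of the nearest start and 649 between opposite genes, and 2837 peaks lay away from such starts. The members lay nearest to starts of 221 genes, and 9 genes held more than 1 member, so members of a gene are not independent.

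The chromatin came from whole *Drosophila melanogaster* embryos of 0 to 18 h from flies with a transgenic insertion that makes an Ada2b-eGFP fusion, and it was precipitated with an antibody to GFP. All samples carry that insertion and form 1 group of 2 biological replicates, so no condition was compared. Whole embryos of mixed age hold many cell types, and a weak peak in all cells cannot be told apart from a strong peak in few. The labels do not give the promoter or copy number of the insertion, and the control was not analysed here.

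Ada2b belongs to SAGA, in which it works with the histone acetyltransferase Gcn5, and transcription factors bring SAGA to promoters. In Drosophila, polymerase often pauses just past the start, and the first nucleosome of the gene body lies downstream of the start. Enhancers and alternative promoters of fly genes often lie in first introns.

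Nearly all members lay in noncoding sequence, either in 5′ UTR exons close to the start or in first introns further in. The sequences at the summits of strong members of both kinds are shown first because they are the bases where Ada2b-eGFP signal was highest. The sequences are from the NCBI reference genome, which has the coordinates of dm6, are read on the strand of the gene, and have the 5 central bases at the summit in capitals. The first 2 lie in 5′ UTR exons and the other 4 in first introns, and all 6 peaks were found in both replicates. PNPase lies on the minus strand at chr3R:31404646-31404675 and ph-p on the minus strand at chrX:2137878-2137907. CG31612 lies on the minus strand at chr2L:21794920-21795000, Ptp4E on the plus strand at chrX:4939930-4940010, rudhira on the plus strand at chrX:11818550-11818630 and Cftr on the minus strand at chr3R:24543187-24543267.
PNPase: aagaaacgtacaGGGCTtttattgtaagat
ph-p: tttcattttactTATCGtaacattgtttat
CG31612: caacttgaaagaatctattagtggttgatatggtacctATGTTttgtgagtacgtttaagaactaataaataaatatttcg
Ptp4E: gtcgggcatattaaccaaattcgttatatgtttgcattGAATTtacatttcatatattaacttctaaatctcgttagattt
rudhira: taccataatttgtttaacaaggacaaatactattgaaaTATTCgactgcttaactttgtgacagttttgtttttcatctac
Cftr: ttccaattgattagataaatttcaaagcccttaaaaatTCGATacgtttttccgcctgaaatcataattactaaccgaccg

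Downstream summits were the smaller share of promoter summits. Of the 1310 promoter peaks outside pairs of opposite genes, 231 were downstream (17.6%, 95% Clopper-Pearson interval 15.6 to 19.8). The share was 16.1% in the list of replicate 1 alone and 14.2% in that of replicate 2 (15.2% ± 1.33, SD, n = 2). Intervals here cover counting error only. No arm stood apart, with shares between 15.6% of promoter peaks on 2L and 19.5% on X, and each of these intervals held the shares of the other large arms. No member lay on chromosome 4, which had 4 such promoter peaks, or on Y, which had none.

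Members gathered within 200 bp of the start, with fewer in the next 100 bp and more again beyond. Of the 231 summits, 139 (60.2%) lay less than 200 bp past the start, 18 lay at 200 bp or more but under 300 bp and 74 (32.0%) at 300 bp or more. The first 50 bp held 52 summits, and the sparsest 50-bp bin, starting at 250 bp, held 7. The median distance was 144 bp and the quartiles were 59.5 and 360.5 bp. From the list of each replicate alone the median was 166.5 bp for replicate 1 and 178 bp for replicate 2. The summits beyond 300 bp did not end at the edge of the rule. With starts up to 1000 bp away, 406 peaks were downstream, and each 100-bp bin from 300 bp on held between 29 and 47 of them. First introns held 69.0% or more of each of those bins. The members nearest to the inner edge were Orct, an organic cation transporter, at 0 bp, alphaTub84B, an alpha tubulin, at 1 bp, and CG10435, RpS29 and Gnpat at 2 bp. Just outside it, Rnp4F lay 1 bp upstream with a signal of 77.2, against 61.2 at Orct. At the outer edge amn, a neuropeptide gene, lay at 500 bp with a signal of 131, and CG4615, the strongest of 4 peaks just outside, lay at 503 bp with 147.

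**Figure D1:**
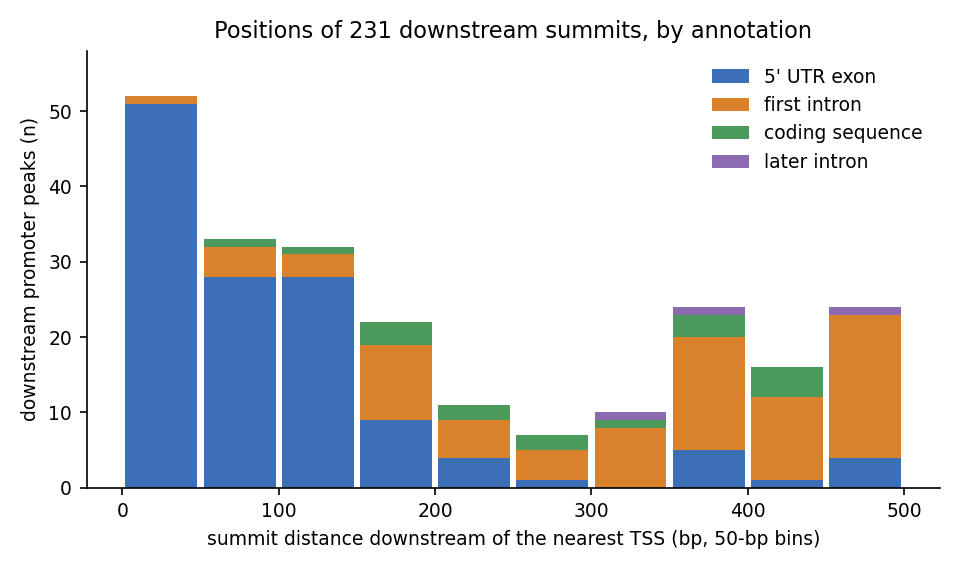
Number of downstream promoter peaks (y axis) by the distance of the summit past the nearest TSS in 50-bp bins (x axis), coloured by where the summit lies in the transcript. Most of the 52 summits in the first bin lie in 5′ UTR exons, and first introns hold most summits beyond 300 bp.

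Coding sequence held few downstream summits and first introns held many, compared with what lies at the same distances from all 19630 annotated protein-coding starts. Exons of 5′ UTRs held 131 members (56.7%, interval 50.1 to 63.2), against 48.6% of bases at those distances. First introns held 80 (34.6%, interval 28.5 to 41.2), against 17.3% of such bases. Coding sequence held 17 (7.36%, interval 4.35 to 11.5), against 31.6%, and later introns held 3. Over the lists of single replicates the first-intron share was 43.2% ± 2.95 and the coding share 3.47% ± 2.67 (SD, n = 2 each). These shares were not tested, since genes with a peak also differ from all genes in structure. The first intron had a median length of 688 bp at member starts, against 723 bp at upstream promoter peaks and 187 bp over all starts. The median distance from start to start codon was 603 bp at member starts, against 389 bp at upstream promoter peaks and 173 bp over all starts. The class was read from the transcripts that begin at the nearest start, and for 6 members those transcripts differed.

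The annotation changed with distance. Among the 139 summits under 200 bp, 116 (83.5%, interval 76.2 to 89.2) were in 5′ UTR exons, against 62.2% of bases there at all starts. First introns held 12.9% of these summits, close to the 11.8% of bases. Among the 74 summits at 300 to 500 bp, 53 (71.6%, interval 59.9 to 81.5) were in first introns, against 29.7% of bases at those distances. Coding sequence held 8 of the 74 (10.8%, interval 4.78 to 20.2), against 47.2% of bases. The first-intron summits lay a median of 153.5 bp past the end of the first exon.

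**Figure D2:**
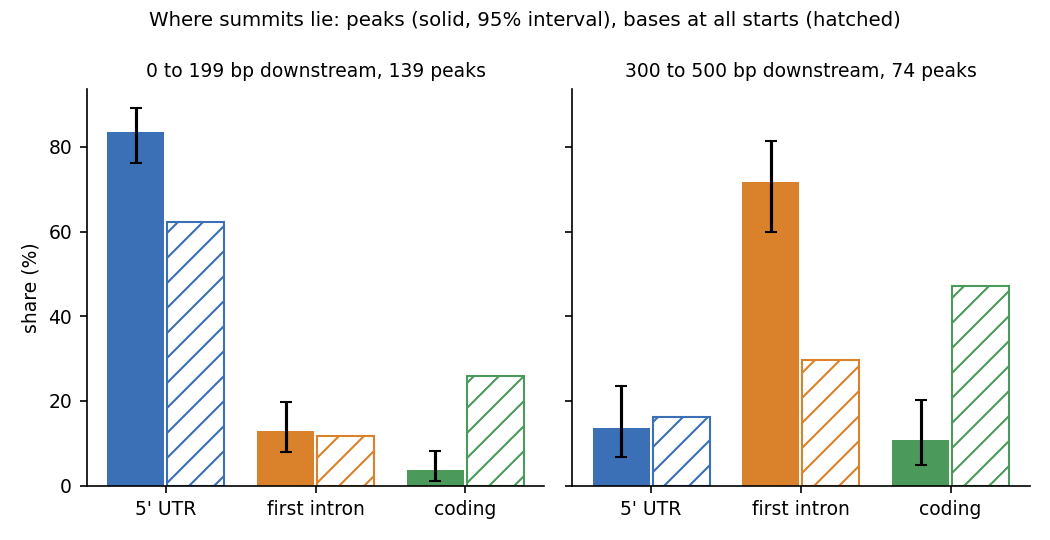
Share of downstream summits in 5′ UTR exons, first introns and coding sequence (y axis, %), under 200 bp (left) and at 300 to 500 bp (right). Solid bars are peaks with 95% Clopper-Pearson intervals. Hatched bars are all bases in the same range from 19630 starts, with each distance counted equally. In the right panel 71.6% of summits lie in first introns, against 29.7% of bases.

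The replicate summits matched to members differed little in position, and most lay on the same side of the start in both replicates. A peak overlapped 230 of the 231 members in the ranked lists of both replicates, which hold all candidate peaks and cover 13.8% and 11.0% of the arms. The conservative list was itself made from both replicates, and 4776 and 4756 of all 4796 peaks had such an overlap. The replicate summit nearest to the member was taken, so these matches favour small gaps and are not independent evidence of repetition. A replicate peak can also serve more than 1 member, as at Karybeta3. Of those 230, 198 (86.1%, interval 80.9 to 90.3) had summits downstream in both replicates, 25 in 1 replicate and 7 in neither. For the 52 members within 50 bp of the start, 28 (53.8%, interval 39.5 to 67.8) were downstream in both. For those at 50 to 500 bp it was 170 of 178 (95.5%, interval 91.3 to 98.0), and for first-intron members 78 of 80. The replicate summits differed by a median of 25 bp, with quartiles at 11 and 51 bp. The median gap was 28 bp for members within 50 bp of the start and 24 bp for those at 50 to 500 bp. The part of such gaps in the changes of side near the start was not tested. The widest gap was 268 bp, at CG30467, with summits at 240 and 508 bp. The next widest were at CG5455, CG5114, dop and Sec13, and all but Sec13 had a signal below the median of members.

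**Figure D3:**
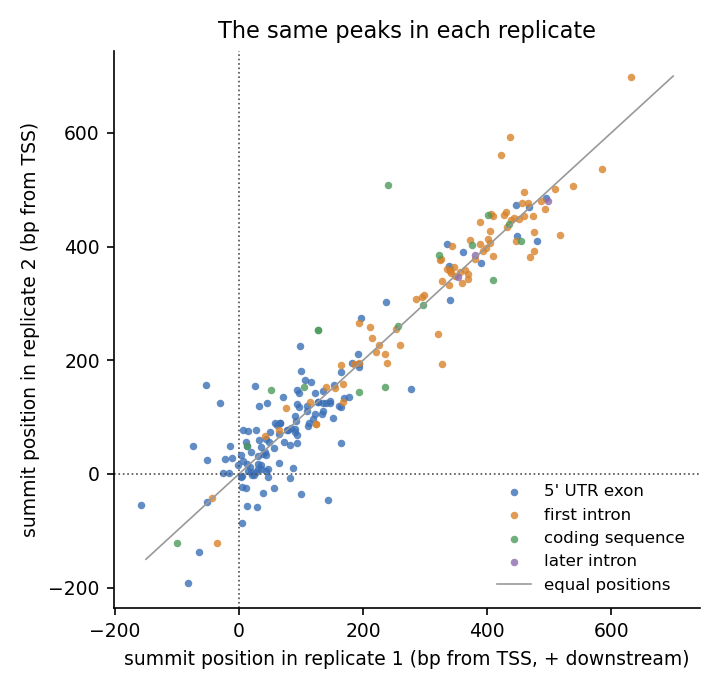
Summit position of each of 230 members in replicate 1 (x axis) and replicate 2 (y axis), in bp from the TSS and positive downstream, coloured by annotation. The line marks equal positions and dotted lines mark the TSS. Of these members, 198 lie above and to the right of both dotted lines, downstream in both replicates.

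A smaller share of members than of upstream promoter peaks was found in both replicates. A peak of the thresholded list of each replicate overlapped 102 members (44.2%, interval 37.6 to 50.8), against 637 upstream promoter peaks (59.0%, interval 56.0 to 62.0) and 51.7% of all 4796 peaks. Another 59 members overlapped such a peak in 1 replicate and 70 in neither. First-intron members were in both lists at 49 of 80 (61.3%), 5′ UTR members at 48 of 131 (36.6%) and coding members at 4 of 17 (23.5%). The median signal percentile had the same order, and its part in these shares was not tested.

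Signal was lower at members than at upstream promoter peaks. The signal is the value of the authors' peak caller, used here only to rank peaks within a list. Its median was 73.4 at members and 97.2 at upstream promoter peaks. As a percentile of the list, the median was 38.6 at members, 57.2 at upstream promoter peaks, 61.3 between opposite genes and 46.3 away from starts. In the lists of single replicates it was 37.97 ± 0.41 at downstream and 54.9 ± 1.32 at upstream promoter peaks (SD, n = 2 each), a gap far larger than the spread between replicates. The weakest 25% of the list held 87 members (37.7%, interval 31.4 to 44.3), against 19.6% of upstream promoter peaks. The strongest 25% held 40 members (17.3%, interval 12.7 to 22.8), against 31.0%.

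Within the members, first-intron peaks had a median percentile of 52.4, 5′ UTR peaks 28.0 and coding peaks 10.8. That order did not hold beyond the spread when peaks were taken from the lists of single replicates, which are not the same set of peaks. Those lists held 87 and 64 5′ UTR peaks and 69 and 57 first-intron peaks in replicates 1 and 2. There the median was 41.3 ± 4.71 for first-intron peaks and 38.3 ± 3.15 for 5′ UTR peaks (SD, n = 2 each), and replicate 2 had 5′ UTR peaks higher than first-intron peaks. Coding peaks had a median of 15.3 over 9 peaks in replicate 1 and 42.8 over 2 peaks in replicate 2. The low place of coding peaks thus did not repeat in replicate 2, where they were few. A signal under 30 was found at 14 members (6.06%, interval 3.35 to 9.96) and at 31 upstream promoter peaks (2.87%). Each of these 14 shared bases with another peak of the list, as at Karybeta3, where a peak of signal 2.73 at 277 bp overlapped one of 118 at 75 bp.

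**Figure D4:**
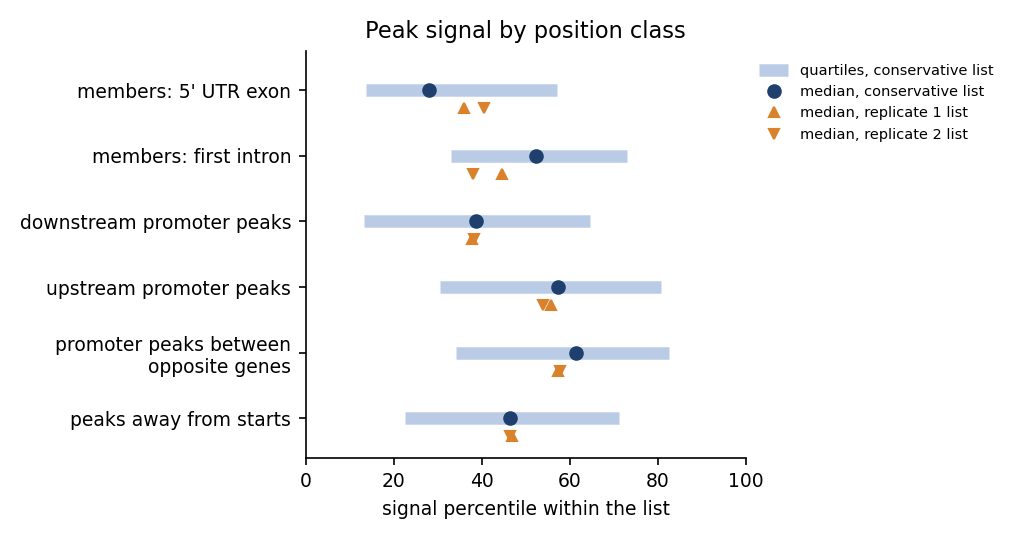
Signal percentile within the list (x axis) for classes of peaks (rows). Circles and bands are the median and quartiles in the conservative list, and triangles are medians in the list of each replicate. Downstream promoter peaks have a median of 38.6, against 57.2 for upstream promoter peaks.

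Of the 4 strongest 5′ UTR members, 3 lay within 100 bp of the start, and the other, ph-p, lay at 478 bp. PNPase, a polynucleotide phosphorylase that degrades mitochondrial RNA, had the highest signal of all members, 1396, with the summit at 90 bp in replicate 1 and 79 bp in replicate 2. It ranked at percentile 99.8 in both replicates. GstE13, a glutathione S-transferase, followed with 997, at 84 and 80 bp, and Ufsp1, a protease of the ubiquitin-like modifier UFM1, had 418, at 28 and 4 bp. At all of these another start of the same gene lay further downstream than the summit, 93 bp away at PNPase, 119 bp at GstE13 and 90 bp at Ufsp1. These summits were downstream of one start and upstream of the next. Trpm, a cation channel, had 320, at 123 and 105 bp, and CAH3, a carbonic anhydrase, had 242, at 147 and 124 bp. Trl, which encodes GAGA factor, had 230, with summits at 134 and 105 bp and percentiles of 86.7 and 78.1 in replicates 1 and 2.

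A few 5′ UTR members lay deep in long first exons. ph-p, a Polycomb group gene for a subunit of the repressive complex PRC1, had a signal of 637, with the summit at 495 bp in replicate 1 and 486 bp in replicate 2 inside a first exon of 714 bp. Its percentiles were 98.0 and 97.2. Another ph-p start had a weaker member at 110 bp (signal 72.2), with a peak of signal 1410 at 741 bp upstream of that start. ph-d, its tandem duplicate, had a member of signal 60.7 at 145 bp. Reads of the duplicates may be placed on either copy where they match, so the ph-p and ph-d values are uncertain. chk had 200 at 468 and 469 bp in a first exon of 789 bp.

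The strongest first-intron members lay between 198 and 491 bp. CG31612 had a signal of 466, with summits at 487 bp in replicate 1 and 481 bp in replicate 2. scramb2, a phospholipid scramblase, had 416, at 324 and 377 bp. Ptp4E, a receptor tyrosine phosphatase, had 368, at 399 and 398 bp, and rudhira had 365, at 253 and 255 bp. CG8128 had 363, at 491 bp in the conservative list, and its summits at 510 bp in replicate 1 and 501 bp in replicate 2 lay just past the 500-bp limit. Cftr, an ABC-family chloride channel, had 356, at 194 and 196 bp, and a weaker member (82.5) 9 bp past another start of the same gene. The strong members kept their place to within 2 bp at Ptp4E, rudhira and Cftr, while scramb2 differed by 53 bp.

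Further first-intron members had signals between 120 and 304. egh, a glycosyltransferase of glycosphingolipids, had 304, at 381 and 378 bp. dlg1, a scaffold of septate junctions, had 250, at 431 and 461 bp, and Cerk, a ceramide kinase, had 237, at 238 and 195 bp. sqh, the regulatory light chain of nonmuscle myosin, had 214, with the summit at 121 bp in the conservative list, 11 bp past a first exon of 110 bp. Its replicate summits were at 124 and 87 bp, so that of replicate 2 lay inside the exon. eas, an ethanolamine kinase, had 205, and Mer, the Drosophila Merlin, had 191. Dp, the dimerization partner of E2F, had 185 at 409 and 384 bp and a stronger peak of 305 at 210 bp upstream of the same start. SREBP, a transcription factor of lipid synthesis, had 120 at 493 and 466 bp. pAbp, the poly(A)-binding protein, had the strongest of the 3 members in a later intron, with 268 at 498 and 480 bp, followed by Sxl, the master regulator of sex determination, with 107.

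The 17 coding members had a median signal of 50.3, against 73.4 for all members. CG44812 had the highest signal among them, 181, with summits at 376 and 403 bp. Lam, a nuclear lamin, had 90.8, and its summits lay at 235 bp in replicate 1 and 153 bp in replicate 2. Got2, an aspartate aminotransferase, had 82.6. eIF3b, a translation initiation factor, held 2 coding members, of signals 50.5 and 6.17, which overlap the same peak of replicate 1.

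Ada2b itself held a first-intron member. The peak lay at chr3R:8240080-8240218, 361 bp past a start, with a signal of 161. The summit was at 370 bp in replicate 1 and 351 bp in replicate 2, and the signal percentiles were 82.4 and 59.3 (mean 70.8 ± 16.4, SD, n = 2). Signal from copies of the insertion and from the resident Ada2b gene cannot be told apart there. It was the only 1 of 21 SAGA subunit genes measured that was nearest to a downstream peak (4.76%, interval 0.120 to 23.8). That interval holds the 1.58% of all protein-coding genes, so the count does not set these genes apart. Among the 21, 2 were nearest to an upstream peak (9.52%, against 7.13% of all genes).

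Other starts were common near members. Another start of the same gene lay within 500 bp of the summit at 69 members (29.9%, interval 24.0 to 36.2), against 160 upstream promoter peaks (14.8%, interval 12.8 to 17.1). At 48 members (20.8%) such a start lay further downstream than the summit, against 9.27% of upstream promoter peaks, and the distance to it was 179 bp in the median. Genes with more than 1 annotated start held 71.9% of members and 56.3% of upstream promoter peaks, so the rule had more starts to choose from at members. Starts of noncoding genes lay within 500 bp of 16 members (6.93%, interval 4.01 to 11.0) and 5.28% of upstream promoter peaks. Of those 16, 12 had one on the opposite strand, among them BEAF-32, an insulator protein gene. RpS29 had a snoRNA start on its own strand, and its summit was at -16 bp in replicate 1 and 2 bp in replicate 2. A start of either kind, of the same gene or of a noncoding gene, lay within 500 bp of 79 members (34.2%, interval 28.1 to 40.7). The share was 19.4% at upstream promoter peaks.

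Some members had a neighbouring peak. Another peak lay within 1 kb of 63 members (27.3%, interval 21.6 to 33.5), against 20.6% of upstream promoter peaks. A peak on the upstream side of the same start lay within 1 kb at 42 members (18.2%). The partner was the stronger at CG11151, with 188 at 458 bp downstream and 347 at 250 bp upstream. It was the weaker at hng3, with 243 at 407 bp downstream and 45.2 at 164 bp upstream. The member peak itself covered the start at 49.8% of members.

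Genes of the lists examined were rarely nearest to a member, as were genes in general. Of 13968 protein-coding genes, 221 were nearest to a downstream promoter peak, 1.58%, and 7.13% were nearest to an upstream one. Over 26 lists of complexes, pathways and cell type markers, 25 of 1068 genes had a downstream peak (2.34%). Insulator, architectural and promoter factors had 4 of 23: Trl, the Trl-interacting BTB protein gene lolal (135), the zinc finger gene pita (95.9) and BEAF-32 (89.0), which was named after its values were seen. The interval of that share, 4.95 to 38.8%, is wide. The Polycomb and trithorax group had 3 of 29 (10.3%, interval 2.19 to 27.4): ph-p, Utx (75.3), an H3K27 demethylase, and ph-d. Cytoskeleton, adhesion and small GTPase genes had 5 of 78 (6.41%, interval 2.11 to 14.3), with sqh, Mer and the integrin gene if (94.8) highest. The intervals of these lists lay above the 1.58% of all genes. With 26 lists examined and no test run over them, these shares do not set the lists apart.

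Ribosomal protein, translation and transcription machinery genes had downstream peaks at shares whose intervals held the 1.58% of all genes. Of 86 cytosolic ribosomal protein genes, 2 were nearest to a downstream peak (2.33%, interval 0.283 to 8.15), RpS29 (142, at 2 bp) and RpS23 (76.1, at 12 bp), and 16 were nearest to an upstream one (18.6%, against 7.13% of all genes). Both of these summits lay close to the start, where the side of the summit repeated least. Mitochondrial ribosomal protein genes had 1 of 73, mRpS29 at 4 bp, and translation factors had 2 of 56, pAbp and eIF3b. Genes of TFIID, Mediator, polymerase II and elongation had 0 of 53 (interval up to 6.72%), and the proteasome had 0 of 48 (interval up to 7.40%).

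Developmental and cell type lists had 0 or 1 gene each, counts too small to set apart from the 1.58% of all genes. The signalling list had 1 of 62 (1.61%, interval 0.0408 to 8.66), InR, the insulin receptor gene, with 77.8 at 427 and 456 bp, and it had 13 genes with an upstream peak. The neuronal list had 1 of 41, Fas2 (86.7), the glial list 1 of 12, Gli (152), the germ line list 1 of 22, bgcn (156), and the ecdysone list 1 of 19, Eip75B (156), a nuclear receptor gene with 3 members at different starts. The Hox, segmentation, muscle, epidermis and gut, haemocyte and fat body, heat shock, and E(spl) and Bearded lists had none. Cuticle protein genes had 0 of 120 and adult chemoreceptor genes 0 of 119. ATAC subunit genes had 0 of 8. A peak list of whole embryos does not say in which cells a peak was present.

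The sequence at members was richer in G and C than at upstream promoter peaks. The median G and C content within 100 bp of the summit was 42.3% at members and 34.8% at upstream promoter peaks, and it was 44.8% around the point 150 bp past all starts. Members in first introns had 36.3%, those in 5′ UTR exons 44.3% and those in coding sequence 53.2%. Along the members it was lowest at the summit, 39.5% in the 21 bases at the summit against 45.5% in those 80 bp before it.

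Words known from fly promoters were counted on both strands within 100 bp of the summit. Windows at all starts, here and below, were centred 150 bp past the start, with 100 bp each side. They held neither the start nor the bases before it, so their shares are not those of the promoter itself. TATAAA was in 22.9% of members (interval 17.7 to 28.9), against 410 of the 1079 upstream promoter peaks, 37.7% of all peaks and 16.8% of windows at all starts. The repeat CACACA was in 21.6% of members (interval 16.5 to 27.5), against 135 of the 1079 upstream promoter peaks, 14.4% of all peaks and 17.8% of windows at all starts. GAGAG, a site of GAGA factor, was in 24.2% of members, 25.5% of upstream promoter peaks, 21.5% of all peaks and 20.9% of windows at all starts. CGGACG, a spelling of the pause button, was in 17 members (7.36%, interval 4.35 to 11.5), against 2.13% of upstream promoter peaks and 5.05% of windows at all starts. That word was in only 2.88% ± 1.82 (SD, n = 2) of downstream peaks in the lists of single replicates. TATCGATA, the DREF site, which is its own reverse complement, was in 2.16% of members, 5.19% of upstream promoter peaks, 2.84% of all peaks and 0.534% of windows at all starts. GGTCACAC, AGATAA, AAAAAAAA and the self-complementary CAGCTG had intervals at members that held the upstream share. At the start itself, an initiator (TCAGT or TCATT on the gene strand within 5 bp) was found at 14.9% of member starts, 21.4% of starts with upstream peaks and 14.3% of all starts. TATAAA 40 to 15 bp before the start was found at 2.63% of member starts (interval 0.972 to 5.64). It was found at 3.45% of starts with upstream peaks and 6.81% of all starts. The higher share of TATAAA around member summits than in windows at all starts thus did not extend to this place.

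A hexamer, ACAGTG, recurred in member windows and lay mostly on one side of the summit. It was chosen after the sequences had been seen, so its frequency is a description. It can share its last bases with the reverse complement of CACACA, is not its own reverse complement, and was counted on both strands. It was in 48 members (20.8%, interval 15.7 to 26.6), in 21.5% of upstream promoter peaks, in 21.4% of all peaks and in 8.18% of windows at all starts. Within 150 bp of the member summits it had 79 copies, of which 61 (77.2%, interval 66.4 to 85.9) lay 5′ of the summit when the hexamer is read 5′ to 3′. The median place of those 61 was -79 bp, with quartiles at -119 and -61 bp. Upstream promoter peaks had 291 of 402 copies on that side (72.4%) with a median of -83 bp, so this arrangement was shared with the other promoter peaks.

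**Figure D5:**
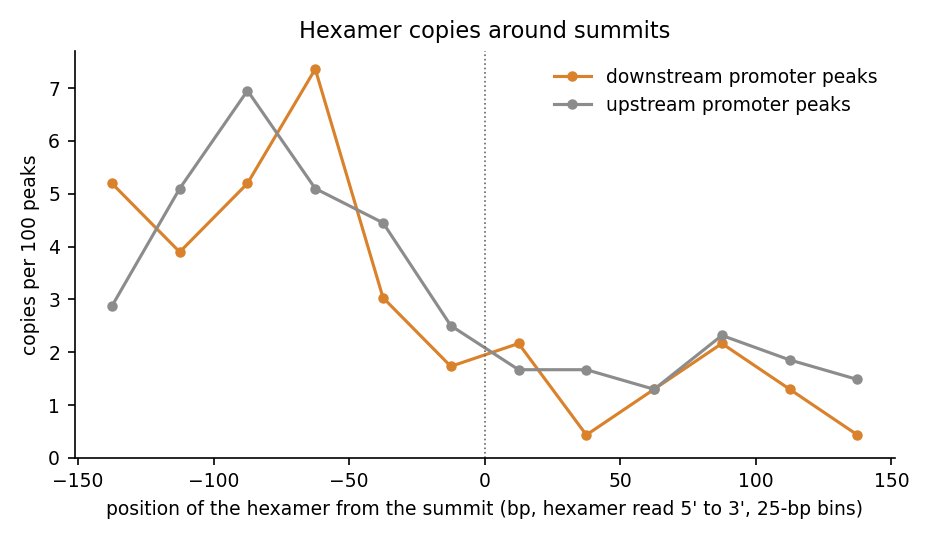
Copies of the hexamer per 100 peaks (y axis) by its position from the summit in 25-bp bins (x axis, bp, read in the direction of the hexamer, so negative is 5′ of the summit). Both lines have their highest point 50 to 125 bp before the summit, a stretch with 39 of 79 copies at members and 186 of 402 at upstream promoter peaks.

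A longer word held the hexamer. The hexamer followed after 7 bases by GCTA was in 5 members (2.16%, interval 0.706 to 4.98), in 9 upstream promoter peaks (0.834%), in 40 of all 4796 peaks (0.834%) and in 5 of 19276 windows at all starts (0.0259%). It was also chosen after the sequences were seen. In the 5 members the summit lay 3′ of it in each case. The same side was seen at 8 of 9 copies in upstream promoter peaks and 41 of 42 over all peaks, so it was not particular to members. The member sites of the longer word are shown on the strand on which it reads, with the hexamer and GCTA in capitals. They are followed by 4 sites at strong members with the hexamer alone. Those with the longer word were Ptp4E on the plus strand at chrX:4939890-4939919, CG18622 on the plus strand at chr3R:16986562-16986591, egh on the plus strand at chrX:2593850-2593879, CG16721 on the plus strand at chrX:5880574-5880603 and RhoGAP16F on the plus strand at chrX:18094837-18094866. Those with the hexamer alone were ph-p on the plus strand at chrX:2137816-2137845, rudhira on the plus strand at chrX:11818490-11818519, Cftr on the plus strand at chr3R:24543149-24543178 and Cerk on the plus strand at chr3R:5361781-5361810.
Ptp4E: aactgtaatgccACAGTGaagactcGCTAa
CG18622: ttgagttcggccACAGTGgtccctcGCTAg
egh: agccggccaagtACAGTGgccaccgGCTAg
CG16721: gtgtgtttgtttACAGTGggtattgGCTAa
RhoGAP16F: tgggtggttaccACAGTGggcactgGCTAa
ph-p: agaaccaagagtACAGTGggtcaatttttt
rudhira: acacatttgggcACAGTGcggtaaaagtga
Cftr: ggcaagtctgttACAGTGaaacattaaatg
Cerk: tcagttagatatACAGTGaaacatcatcag

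The summit lay 65 bp 3′ of the hexamer at Ptp4E, 91 bp at CG18622, 93 bp at egh, 54 bp at CG16721 and 61 bp at RhoGAP16F. At the sites with the hexamer alone it lay 62 bp 3′ at ph-p, 85 bp at rudhira, 63 bp at Cftr and 74 bp at Cerk. The hexamer thus lies outside the short windows shown at the summits of Ptp4E, rudhira and Cftr. Of these 9 genes, Cftr, Cerk, CG18622 and ph-p lie on the minus strand, so the site shown does not read in the direction of the gene there. Ptp4E, CG18622 and RhoGAP16F each held another hexamer on the minus strand, which at CG18622 reads with the gene. The sites shown are a selection. CG8128 (363), not shown, had the hexamer on the minus strand. At Mer and RpS29, also not shown, the summit lay on the other side, at -96 and -86 bp.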

How the data were processed

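Peak lists of anti-GFP chromatin precipitation from Ada2b-eGFP embryos were used as deposited: the conservative and the other thresholded list of the series, and the ranked and thresholded lists of each of 2 replicates. Per the deposited notes, the authors made them from dm6 alignments with a control and kept peaks by IDR, the irreproducible discovery rate. Which aligner and which peak caller were used is not stated in the labels or notes. The deposited score is the IDR rescaled by the authors, 830 or more in the conservative list. The deposited signal is the authors' peak caller's value, not normalized between lists. The summit offset was added to the peak start. Peak lists do not give read depth, so only the number of peaks sets the precision of a share. The 2 other ranked lists of the series, whose replicate columns carry no header, were not used.

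Starts and exons were those of the Ensembl annotation, release 115, on 7 arms, and sequences came from NCBI genome Release 6 (RefSeq). No peak passed the end of an arm. Replicate summits were read from overlapping peaks (1 bp or more), taking the nearest summit. No test was run over peaks, since peaks are not replicates. Shares have 95% Clopper-Pearson intervals, and SD is over the lists of the 2 replicates, whose spread is that between these biological samples. Members and lists were chosen with earlier results of these data known. Named genes were the nearest genes of the 25 strongest members found in both replicates, the 5 nearest and 5 farthest from the start, the 3 strongest of each annotation class, up to 3 of each list, every SAGA subunit with a member and up to 5 with the widest replicate gap. The text gives a selection of these. Alternatives were the other thresholded list, each replicate alone, other start windows, the stronger peaks, the most 5′ start of each gene, pairs of opposite genes kept, a margin of 50 bp, other overlap rules and other word windows. The scripts were tested on simulated data, where 1000 of 1000 planted summits, 1000 of 1000 shifted replicate summits and 200 of 200 planted words were recovered. Computation was in Python 3.11.15 with pandas 2.3.3 and numpy 2.4.6, intervals came from scipy 1.17.1, and plots from matplotlib 3.10.9.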

Additional observations from a re-analysis of the deposited data

How the results depend on the processing

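No comparison between conditions was possible in 1 group, and the limits are those of peak lists: depth is unknown, a share rests on the number of peaks, and 2 replicates give a spread with little precision. No paired analysis was possible because the series has 1 group. An order turned in several cases, and those given here are examples. First-intron peaks had a higher median percentile than 5′ UTR peaks in the conservative list and in replicate 1, but 37.9 against 40.5 in replicate 2. CGGACG was in 7.36% of members, above the 5.05% at all starts, but in 4.17% and 1.59% of downstream peaks in replicates 1 and 2. Of the alternative values of the main results, 52 moved and 38 did not. A count had moved when it changed by over 1.5 times, a share of replicate recovery or side when it left its 95% interval, and other values when they changed by 1 SD of the replicate lists or more. The cause was not tested unless the setting itself changes which peaks count. Another start here means one of the same gene or of a noncoding gene within 500 bp of the summit, with a main value of 34.2%. Starts up to 1000 bp away gave 406 peaks, a downstream share of 25.7%, a median position of 518 bp, a signal percentile of 45.9, 94.1% downstream in both replicates, 61.8% in first introns, 18.0% with another start nearby and 21.7% with the hexamer. Starts within 250 bp gave a position of 82 bp, a percentile of 31.6, 79.2% downstream in both, 13.5% in first introns, 49.2% with another start and 17.6% with the hexamer. Peaks at or above the median signal gave 89 peaks, a share of 12.9%, a position of 186 bp, a percentile of 72.9, 89.9% in both lists, 93.3% downstream in both, 48.3% in first introns, 41.6% with another start and 25.8% with the hexamer. With the most 5′ start of each gene the share was 20.9%, the position 163.5 bp, the percentile 41.4, other starts 57.5% and the hexamer 17.5%. With opposite pairs kept the position was 97.5 bp, the percentile 44.5, first introns 27.6%, other starts 45.6% and the hexamer 17.4%. With summits at least 50 bp downstream the share was 14.2%, the position 207 bp, the percentile 40.4, the side 95.5% and first introns 44.1%. The hexamer was in 6.93% of windows of 50 bp each side and 32.0% of windows of 200 bp each side. Without peaks of signal under 30, an alternative chosen after seeing the data, the percentile was 42.6. In the list of 1 replicate alone the count was 126 to 168, the share 14.2 to 16.1%, the position 166.5 to 178 bp, the percentile 37.7 to 38.3, first introns 41.1 to 45.2%, other starts 36.3 to 40.5% and the hexamer 23.8 to 25%. Recovery and side in both replicates cannot be given with 1 replicate.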
